A study of Homo sapiens with 4 samples.

Results

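Named antisense RNAs are transcripts made from the DNA strand opposite a neighbouring gene and called after it, so that TMPO-AS1 lies opposite TMPO. The rows of the deposited gene table with a symbol ending in -AS and a digit and a mean of at least 1 FPKM over the 4 libraries were taken, with OIP5-AS1 and EPB41L4A-AS1 left out by name. FPKM is the number of fragments scaled for transcript length and library size. The rule kept 323 of the 60595 genes in the table. Of all 1248 rows with such a name, 923 lay below a mean of 1 FPKM, among them 492 listed at 0 in all 4 libraries.

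The RNA came from A375, an established human melanoma line labelled wild type, and was sequenced with paired ends. The control group held 2 libraries labelled DMSO, the solvent, and the treated group held 2 libraries labelled paroxetine hydrochloride (PH), a serotonin reuptake inhibitor. No other allele or agent is named for either group. Neither the labels nor the table gives the dose, the time of exposure or whether the libraries are separate cultures, so the p-values measure the spread between libraries, which may be technical. Of the 10 melanoma and neural crest markers listed, SOX10, MIA, CSPG4, MITF, S100A1 and S100B were present, whereas TYR was listed at 0 and MLANA, PMEL and DCT lay under 1 FPKM in every library. By the test described below SOX10 (181 to 275 FPKM over the 4 libraries) and CSPG4 rose with PH, MIA (139 to 321 FPKM) and S100B (1.89 to 6.66 FPKM) fell, and MITF and S100A1 were not called. The part of these changes in the results was not tested. Markers of epithelial, blood and endothelial cells (EPCAM, KRT5, PTPRC, CD3E, PECAM1 and VWF) also lay under 1 FPKM in every library.

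Many antisense RNAs start close to the start of their sense gene and run the other way from a shared promoter region, while others cross the end or the interior of the sense gene. Depending on the locus they can help or hinder transcription of the sense gene, pair with its RNA or act elsewhere, and many are short-lived RNAs of the nucleus. Their levels are usually below those of coding genes.

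Of the 323 antisense RNAs, 315 could be read beside a sense gene, since 312 distinct sense genes were in the table. The other 8, 7 of them from the HOX clusters and the eighth RPARP-AS1, are named for a cluster or for a gene with no row of that name. GENCODE release 29 placed 114 of the 315 head to head with the sense gene, with the 5′ ends overlapping, and 81 tail to tail. Another 68 lay inside the sense gene, 21 spanned it, 30 ran away from it without overlap and 1 ran towards it without overlap. In 175 pairs the closest annotated transcript starts of the 2 genes were within 1000 bases. In 70 pairs the exons of the antisense RNA shared no base with exons of the sense gene.

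The antisense RNAs were mostly weaker than their sense genes. The median of their mean levels was 3.34 FPKM, against 15.1 FPKM for the sense genes, and 75 of 315 had a higher mean than their sense gene. 144 of the 323 lay under 3 FPKM and 58 at 10 FPKM or more. The strongest was VIM-AS1, opposite the gene of the intermediate filament protein vimentin, at 1034 and 1065 FPKM with DMSO and 925 and 822 FPKM with PH. It shares some of its exon bases, under 50%, with exons of VIM, which was stronger still. The part of VIM reads in the level of VIM-AS1 was not tested. PCBP1-AS1, which spans the gene of an RNA-binding protein, came next at 192, 184, 185 and 181 FPKM in DMSO replicates 1 and 2 and PH replicates 1 and 2, and its groups overlapped. The 5 antisense RNAs just above the limit of 1 FPKM were SRP54-AS1, ADAMTSL4-AS1, FUT8-AS1, HMGN3-AS1 and PPP1R26-AS1, with means of 1.01 to 1.02 FPKM, and the 5 just below it were TOLLIP-AS1, HAS2-AS1, PSMD6-AS1, DDX11-AS1 and SEMA3F-AS1, with means of 0.977 to 0.999 FPKM.

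PH was compared with DMSO by limma on log2(FPKM + 1), with p-values adjusted over 15511 genes, those with 2 or more libraries at 1 FPKM or above. A gene is called when the adjusted p is under 0.05, and each change is PH minus DMSO on the log2(FPKM + 1) scale, which understates the change of weak genes. Of the antisense RNAs 318 were tested. ARMCX3-AS1, DNMBP-AS1, LMCD1-AS1, NCKAP5-AS2 and SRP54-AS1 reached 1 FPKM in too few libraries. 14 entered through the libraries of 1 group only, and 11 of those were called. These were BMF-AS1, CIRBP-AS1, HLA-F-AS1, IGFL2-AS1, MCPH1-AS1 and NAV2-AS1, all higher, and IGF2BP2-AS1, SAPCD1-AS1, SH3PXD2A-AS1, SLC8A1-AS1 and SP2-AS1, all lower. For these 11 the filter itself favoured a difference, so their values are a description and their calls are no support. The same holds wherever they are counted below, also with a library left out, because the filter was set on all 4 libraries. Without the 14, 33 antisense RNAs were higher and 29 lower of 304.

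39 antisense RNAs were higher and 34 lower with PH, and 245 were not called. Over all tested genes 38.6% were called, 18.1% higher and 20.5% lower, against 23.0% of the antisense RNAs. The share called was larger at higher levels in both sets. At means of 1 to 3 FPKM 19 of 139 antisense RNAs were called, against 16.1% of all tested genes at that level. At 3 to 10 FPKM it was 31 of 121 against 30.8%, and at 10 FPKM or more it was 23 of 58 against 51.7%. The median change was 0.05 over the antisense RNAs and -0.0047 over all tested genes. In 112 of the 323 both PH libraries lay above both DMSO libraries and in 88 they lay below both. Over all tested genes the groups were apart in this way in 35.3% (higher in PH) and 36.3% (lower), or 71.6% together. Without DMSO replicate 1, DMSO replicate 2, PH replicate 1 or PH replicate 2 the number called was 39, 37, 44 and 47 in turn, and 27 antisense RNAs, 14 higher and 13 lower, were called under all 4 omissions.

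The reads cannot be assigned to a strand from the table alone, because no source used here gives the strand setting of the counting. Where exons of an antisense RNA share bases with exons of a gene on the other strand, reads of one can therefore not be told apart from reads of the other. Of the 39 antisense RNAs that rose, 16 share exon bases with an opposite-strand gene that also rose, and of the 34 that fell, 16 share them with one that also fell. 13 of the 73 share no exon base with any opposite-strand gene at 1 FPKM or more, 4 of them higher and 9 lower. On the same strand 18 of the 323 share exon bases with another gene at 1 FPKM or more, among them the called ADIRF-AS1, HOXB-AS3, THUMPD3-AS1 and ZFHX2-AS1.

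Most of the 12 largest rises began from weak levels. IGFL2-AS1, named for a member of a family of insulin growth factor-like proteins, stood at 0.0759 and 0.514 FPKM with DMSO and at 5.67 and 6.10 FPKM with PH. Its change was 2.43 ± 0.23 (SE), for an RNA that entered the test through the PH libraries alone, and IGFL2 itself was listed at 0 in all 4 libraries. SLCO4A1-AS1, inside the gene of an organic anion transporter, was the strongest RNA among the large rises. Its levels were 18.2 and 16.6 FPKM with DMSO and 75.3 and 77.1 FPKM with PH, a change of 2.07 ± 0.07 (adjusted p = 0.000189). SLCO4A1 was at 50.6 and 57.4 FPKM with DMSO and at 73.4 and 70.5 FPKM with PH, a smaller rise of 0.41 (adjusted p = 0.0127). With DMSO the antisense RNA was thus the weaker of the pair in both libraries, and with PH it was slightly the stronger in both.

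TDRKH-AS1, head to head with the gene of a Tudor domain protein that acts in the piRNA pathway in mouse, was at 2.39 and 1.16 FPKM with DMSO and 9.38 and 7.99 FPKM with PH (change 1.84 ± 0.25, adjusted p = 0.00439). TDRKH rose as well, from 12.2 and 10.9 FPKM to 20.3 and 19.7 FPKM (change 0.75, adjusted p = 0.00350). ACBD3-AS1, inside the gene of a Golgi acyl-CoA binding protein, was at 0.415 and 1.35 FPKM with DMSO and 6.65 and 4.35 FPKM with PH. ACBD3 rose from 32.6 and 31.7 FPKM to 79.0 and 82.5 FPKM. NAV2-AS1, whose 660 exon bases all lie in exons of the neuron navigator gene NAV2, was at 0.439 and 0.243 FPKM with DMSO and at 3.98 and 2.35 FPKM with PH, and NAV2 was not called. The groups did not overlap in these 3 RNAs, but the choice of the largest rises required this. NAV2-AS1 also entered the test through the PH libraries alone, so its groups could not overlap.

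FBXL19-AS1, head to head with the gene of a CpG island-binding F-box protein, went from 2.77 and 2.84 FPKM to 9.08 and 8.81 FPKM (change 1.39 ± 0.13, adjusted p = 0.00136). FBXL19 was not called, with 23.4 and 19.8 FPKM in DMSO and 25.4 and 29.2 FPKM in PH. DLGAP1-AS2, which shares no exon base with DLGAP1, rose from 7.78 and 9.68 FPKM to 22.2 and 22.9 FPKM (change 1.28 ± 0.12, adjusted p = 0.00145). Another RNA of that locus, DLGAP1-AS1, was not called and stood at 22.3 and 16.9 FPKM with DMSO and 22.5 and 23.5 FPKM with PH. HLA-F-AS1, opposite a non-classical MHC class I gene, rose from 0.289 and 0.520 FPKM to 2.24 and 2.74 FPKM. ZFHX2-AS1, which spans a zinc finger homeobox gene at the edge of detection, rose from 1.17 and 1.12 FPKM to 4.36 and 4.26 FPKM. It shares 801 exon bases with AP1G2, an adaptor protein gene that rose from 16.2 and 17.8 FPKM to 30.7 and 30.6 FPKM.

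Among the 12 largest rises, those of ACBD3-AS1 (adjusted p up to 0.0629, without PH replicate 1), HLA-F-AS1 (0.0504, without PH replicate 2) and NAV2-AS1 (0.0546, without DMSO replicate 2) were lost in 1 of the 4 omissions each. The others were called in all 4, among them IGFL2-AS1, whose call is no support because of the filter. Of the sense genes named with them, the call of SLCO4A1 was lost without DMSO replicate 1, PH replicate 1 or PH replicate 2, with adjusted p up to 0.0736.

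**Figure D1:**
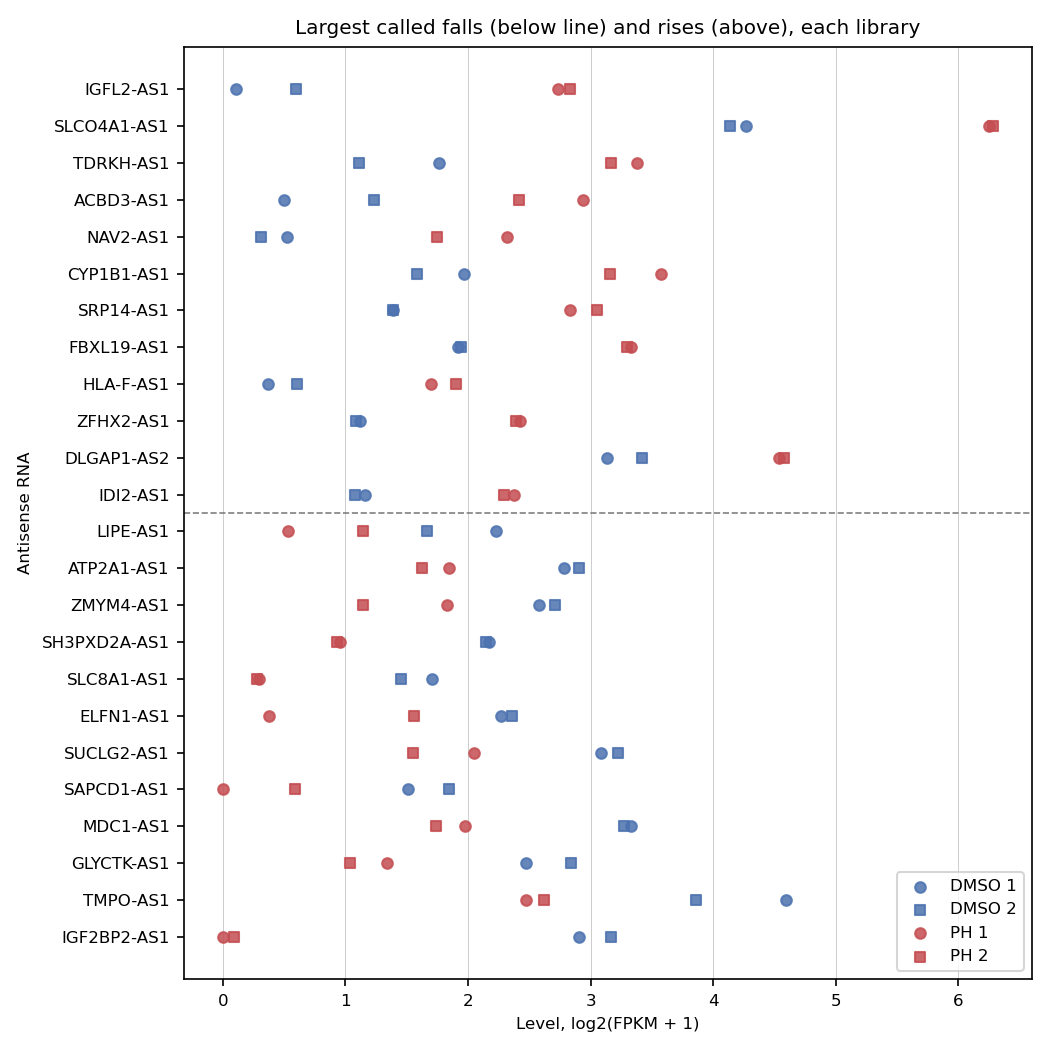
Level of 24 antisense RNAs in each of the 4 libraries on the log2(FPKM + 1) scale, with the 12 largest called falls below the dashed line and the 12 largest called rises above it. Blue marks DMSO, red marks PH, and circles and squares mark replicates 1 and 2. SLCO4A1-AS1 is the strongest of the rises and IGF2BP2-AS1 falls to 0 and 0.0633 FPKM.

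The largest fall was nearly complete. IGF2BP2-AS1 lies within the gene of IGF2BP2, an RNA-binding protein that recognises methylated mRNA, and shares no exon base with it. Its level was 6.498 and 7.97 FPKM with DMSO, and in the PH libraries it was listed at 0 and at 0.0633 FPKM. The change was -2.99 ± 0.19, for an RNA that entered the test through the DMSO libraries alone. IGF2BP2 was not called and stood at 44.4 and 43.4 FPKM with DMSO and 49.2 and 44.6 FPKM with PH.

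MDC1-AS1, with 701 of 738 exon bases in exons of the DNA damage mediator gene MDC1, fell from 9.08 and 8.66 FPKM to 2.93 and 2.34 FPKM (change -1.45 ± 0.15, adjusted p = 0.00187). MDC1 fell with it, from 35.4 and 13.2 FPKM to 4.59 and 7.65 FPKM, with the DMSO libraries far apart. GLYCTK-AS1, tail to tail with the glycerate kinase gene, fell from 4.54 and 6.16 FPKM to 1.53 and 1.06 FPKM (change -1.47 ± 0.21, adjusted p = 0.00543). SUCLG2-AS1 runs away from the gene of a succinyl-CoA ligase subunit and fell from 7.49 and 8.34 FPKM to 3.13 and 1.94 FPKM. GLYCTK and SUCLG2 also fell, SUCLG2 from 69.0 and 67.7 FPKM to 38.2 and 41.7 FPKM.

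SH3PXD2A-AS1 lies in the gene of TKS5, a scaffold of podosomes, and shares no exon base with it. It went from 3.50 and 3.43 FPKM to 0.939 and 0.902 FPKM (change -1.22 ± 0.17), and it too entered through the DMSO libraries alone. SLC8A1-AS1, tail to tail with the sodium-calcium exchanger gene, fell from 2.25 and 1.74 FPKM to 0.224 and 0.210 FPKM, and SLC8A1 fell from 2.71 and 2.47 FPKM to 0.762 and 0.399 FPKM. Both SLC8A1-AS1 and SLC8A1 entered the test through the DMSO libraries alone, so their calls are no support. ATP2A1-AS1, inside a calcium pump gene, fell from 5.89 and 6.49 FPKM to 2.59 and 2.08 FPKM.

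In 5 of the 12 largest falls the libraries of 1 group or both lay over 0.5 apart on the log2(FPKM + 1) scale, namely in TMPO-AS1, described further on, and in 4 others. ELFN1-AS1 was at 3.83 and 4.13 FPKM with DMSO and 0.299 and 1.95 FPKM with PH, and SAPCD1-AS1 at 1.85 and 2.59 FPKM with DMSO and 0 and 0.504 FPKM with PH. ZMYM4-AS1 was at 4.96 and 5.53 FPKM with DMSO and 2.55 and 1.20 FPKM with PH, and LIPE-AS1 at 3.68 and 2.17 FPKM with DMSO and 0.445 and 1.21 FPKM with PH. The fall of LIPE-AS1 was lost in all 4 omissions (adjusted p up to 0.182). That of ZMYM4-AS1 was lost without either DMSO library or PH replicate 2 (up to 0.116), and those of ELFN1-AS1 (up to 0.184) and SAPCD1-AS1 (up to 0.0944) without either DMSO library or PH replicate 1. SLC8A1-AS1 was lost without DMSO replicate 1 (0.0539) and SUCLG2-AS1 without DMSO replicate 2 (0.0550). Of the sense genes, GLYCTK (up to 0.129) and SLC8A1 (up to 0.0662) were lost without either DMSO library, and MDC1 (up to 0.171) without DMSO replicate 1 or either PH library.

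Antisense RNA and sense gene were both called in 40 of the 288 pairs tested, and in 33 of the 40 they moved the same way, 14 both higher and 19 both lower. In the other opposite-strand pairs of the annotation with overlapping gene bodies and both genes called, 393 of 555 pairs (70.8%) moved the same way, 72% of those with shared exon bases and 63.9% of those without. In 27 pairs only the antisense RNA was called, in 91 only the sense gene, 48 higher and 43 lower, and in 130 neither. Of the 289 distinct sense genes tested 64 were higher and 69 lower, with a median change of -0.05. That is 46.0% called, against 38.6% of all tested genes, and at means of 10 FPKM or more 104 of 192 (54.2%), against 51.7%. Across the 288 pairs the changes correlated at Pearson r = 0.41 and Spearman rho = 0.42. These pairs share the 4 libraries and are not independent, and r over the other 3228 pairs was 0.293.

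The likeness of the changes went with shared exon bases. In the 46 tested pairs with at least 50% of the antisense exon bases in sense exons r was 0.74, and in 37 both changes had the same sign. Where less than that was shared r was 0.41 over 184 pairs, and where nothing was shared it was 0.18 over 58 pairs, 34 of them with changes of the same sign. By position r was 0.55 in the 58 pairs with the antisense RNA inside the sense gene, 0.50 in 75 tail-to-tail pairs, 0.30 in 111 head-to-head pairs and 0.22 in 30 pairs that run apart. Whether reads counted for the wrong strand contribute to these values was not tested.

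**Figure D2:**
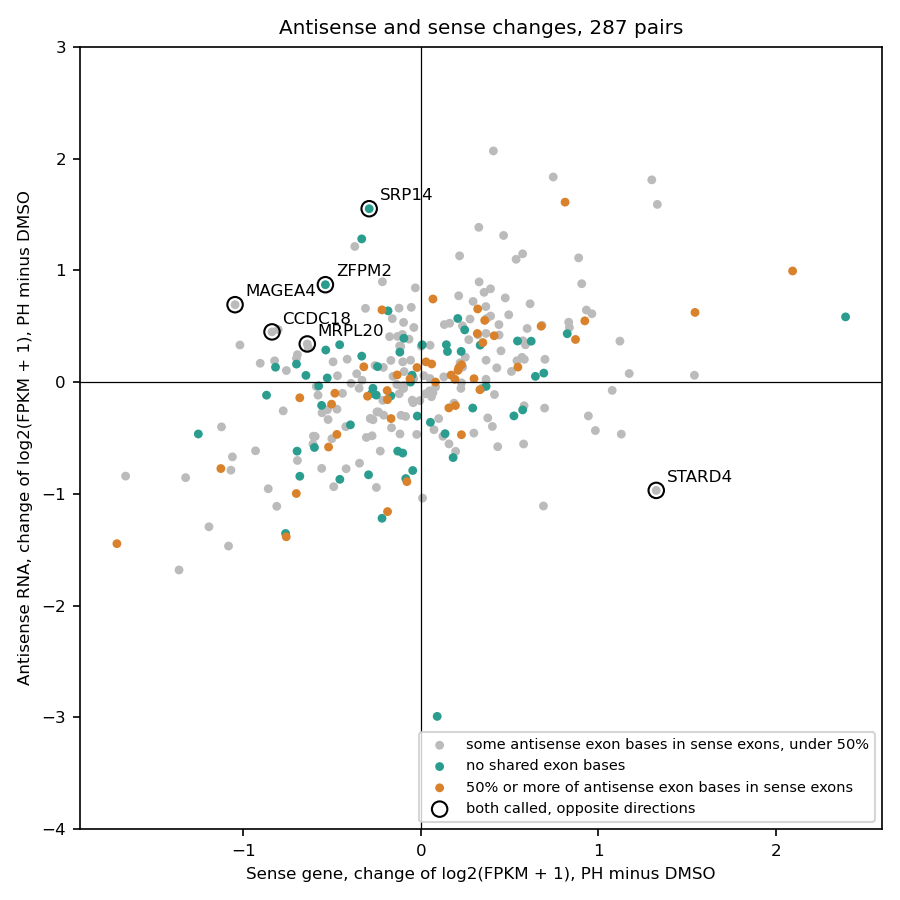
Change of each antisense RNA (vertical axis) against the change of its sense gene (horizontal axis) for 287 of the 288 pairs, both as PH minus DMSO on the log2(FPKM + 1) scale, coloured by the share of antisense exon bases that lie in sense exons. Black circles mark 6 of the pairs called in opposite directions, of which STARD4 alone has a lower antisense RNA and a higher sense gene.

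Opposite movement was called in 7 pairs. In 6 of them, among them those with the sense genes MAGEA4, SRP14, MRPL20, CCDC18 and ZFPM2, the antisense RNA rose and the sense gene fell. In the pair of STARD4 the antisense RNA fell and the sense gene rose. The ratio of antisense to sense level was tested for each pair in a limma fit over 3516 opposite-strand pairs, of which 17.5% were called. Its change was called in 29 of the 288 pairs, 19 higher and 10 lower, among them all 7 pairs of opposite movement. The ratio change is the antisense change minus the sense change in the same libraries. Choosing pairs for called opposite changes therefore favoured a called ratio, so the ratio calls of these 7 are no separate support. The same holds where their ratios are given below.

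MAGEA4 encodes a cancer-testis antigen, a protein of germ cells that many tumours make again. MAGEA4-AS1 rose from 32.7 and 29.6 FPKM to 53.3 and 48.7 FPKM (change 0.69 ± 0.08, adjusted p = 0.00277). MAGEA4 fell from 616 and 606 FPKM to 277 and 315 FPKM (change -1.05, adjusted p = 0.000711). MAGEA4 has close relatives in the same family, and no source used here says how reads that match several genes were handled. The groups did not overlap in either gene, and the ratio changed by 1.74 ± 0.13 (adjusted p = 0.00210).

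The promoter windows of this pair and of the 2 pairs described next are printed because their genes start near each other and moved in opposite directions (MAGEA4 and STARD4) or together (TMPO). The RefSeq table of GRCh38.p14 gives 250 bases before and 50 after each start, and it held 218 of the 323 antisense RNAs and 260 of the sense genes. Capitals mark CCAAT boxes on either strand (CCAAT or ATTGG). On either strand, the E2F site TTTNNCGC, the cell cycle homology region TTTGAA and the sterol element TCACNCCAC had no match in the 6 windows. Of all 35116 windows 34.6% hold CCAAT, 6.89% the E2F letters, 15.2% TTTGAA and 1.13% the sterol letters. The MAGEA4 window (chrX:151912224-151912523, plus strand) holds 1 CCAAT box and the MAGEA4-AS1 window (chrX:151911034-151911333, minus strand) none.
MAGEA4: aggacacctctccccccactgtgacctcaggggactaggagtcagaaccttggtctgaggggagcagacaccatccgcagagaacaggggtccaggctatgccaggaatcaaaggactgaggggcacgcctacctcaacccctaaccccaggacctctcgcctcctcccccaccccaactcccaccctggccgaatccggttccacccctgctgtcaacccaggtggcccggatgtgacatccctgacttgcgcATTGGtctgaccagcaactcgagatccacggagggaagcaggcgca
MAGEA4-AS1: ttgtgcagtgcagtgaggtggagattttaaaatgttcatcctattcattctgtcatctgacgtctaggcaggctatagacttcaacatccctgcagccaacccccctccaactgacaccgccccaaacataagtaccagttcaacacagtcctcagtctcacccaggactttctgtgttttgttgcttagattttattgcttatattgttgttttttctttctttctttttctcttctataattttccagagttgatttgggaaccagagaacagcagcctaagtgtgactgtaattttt

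STARD4 encodes a carrier of sterols between membranes, and its gene responds to cholesterol depletion through the transcription factor SREBP2. STARD4-AS1 fell from 24.7 and 23.4 FPKM to 12.3 and 11.3 FPKM (change -0.97 ± 0.09, adjusted p = 0.00131). STARD4 rose from 23.5 and 23.2 FPKM to 58.0 and 62.3 FPKM (change 1.33, adjusted p = 0.000339). The genes were thus level with each other in the DMSO libraries and apart in the PH libraries, and the ratio changed by -2.29 ± 0.14 (adjusted p = 0.00160). STARD4-AS1 also shares 888 of its 5647 exon bases with NREP, on the other strand, which fell from 71.3 and 65.3 FPKM to 34.5 and 35.3 FPKM. The part of NREP reads in the fall of STARD4-AS1 was not tested. The windows lie at chr5:111512486-111512785 (STARD4, minus strand, with 2 CCAAT boxes) and chr5:111511976-111512275 (STARD4-AS1, plus strand, with none).
STARD4: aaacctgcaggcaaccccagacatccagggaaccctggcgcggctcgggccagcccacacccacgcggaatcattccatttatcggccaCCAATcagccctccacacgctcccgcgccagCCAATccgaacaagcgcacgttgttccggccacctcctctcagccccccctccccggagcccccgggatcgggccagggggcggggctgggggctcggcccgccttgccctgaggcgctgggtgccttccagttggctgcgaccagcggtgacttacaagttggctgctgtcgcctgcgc
STARD4-AS1: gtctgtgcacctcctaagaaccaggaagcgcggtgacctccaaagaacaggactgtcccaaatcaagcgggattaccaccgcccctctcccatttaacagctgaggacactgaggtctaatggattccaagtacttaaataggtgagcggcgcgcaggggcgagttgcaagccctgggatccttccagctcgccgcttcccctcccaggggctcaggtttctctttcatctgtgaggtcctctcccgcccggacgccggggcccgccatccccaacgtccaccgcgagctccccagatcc

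SRP14 encodes a subunit of the signal recognition particle, which leads ribosomes to the endoplasmic reticulum. SRP14-AS1 runs away from it without overlap, starts 123 bases from it and rose from 1.62 FPKM in both DMSO libraries to 6.13 and 7.30 FPKM (change 1.55 ± 0.16, adjusted p = 0.00188). SRP14 fell slightly, from 187 and 191 FPKM to 142 and 167 FPKM (change -0.29, adjusted p = 0.0454). ZFPM2-AS1, tail to tail with the gene of a cofactor of GATA factors and sharing no exon base with it, rose from 13.0 and 11.1 FPKM to 22.6 and 23.1 FPKM (change 0.87 ± 0.10, adjusted p = 0.00275). ZFPM2 fell from 17.1 and 18.3 FPKM to 13.0 and 10.8 FPKM.

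MRPL20-AS1, tail to tail with a gene of the mitochondrial ribosome, rose from 13.6 and 14.9 FPKM to 18.3 FPKM in both PH libraries, and MRPL20 fell from 119 and 130 FPKM to 76.9 and 82.1 FPKM. CCDC18-AS1 rose from 4.64 and 4.61 FPKM to 6.45 and 6.93 FPKM, and CCDC18 fell from 5.72 and 5.92 FPKM to 2.45 and 3.22 FPKM. Both antisense calls were lost in all 4 omissions (adjusted p up to 0.126 for MRPL20-AS1 and 0.155 for CCDC18-AS1). The ratio change of CCDC18 was also lost in all 4 (up to 0.114) and that of ZFPM2 without DMSO replicate 2 (0.0612). Among the sense genes SRP14 (up to 0.180) and CCDC18 (up to 0.0817) were lost without either DMSO library or PH replicate 1, and ZFPM2 (up to 0.104) without either DMSO library or PH replicate 2.

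**Figure D3:**
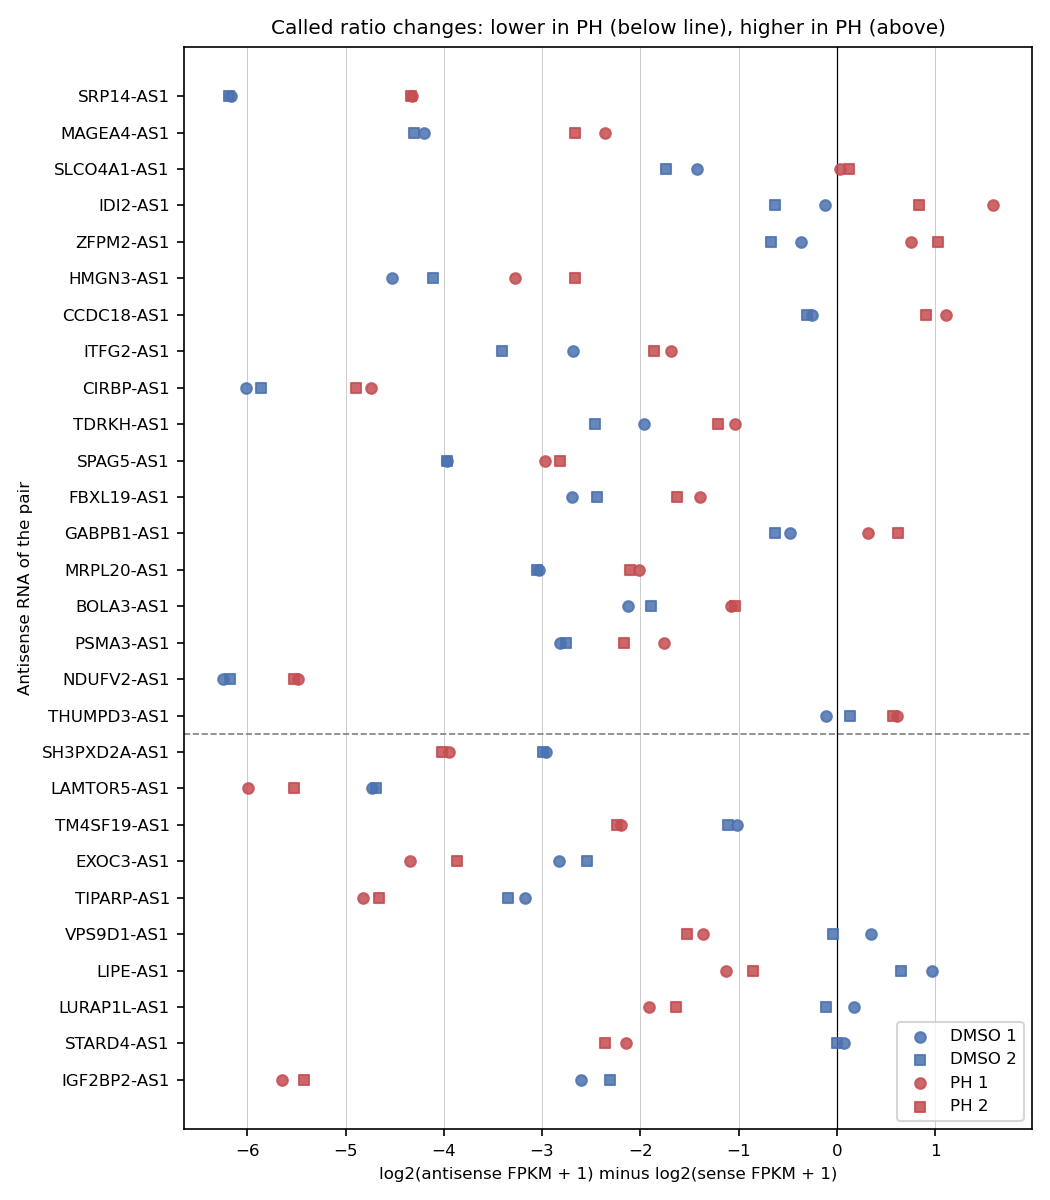
Log2 ratio of antisense to sense level, log2(antisense FPKM + 1) minus log2(sense FPKM + 1), in each library for 28 of the 29 pairs with a called change. The 18 pairs higher with PH are above the dashed line and the 10 lower ones below. Blue marks DMSO and red marks PH, and in ZFPM2-AS1 and CCDC18-AS1 the ratio passes from below 0 to above 0.

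In most other pairs with a called ratio only 1 partner was called. TIPARP, an ADP-ribosyltransferase induced through the aryl hydrocarbon receptor, rose from 31.9 and 31.1 FPKM to 95.7 and 91.7 FPKM. TIPARP-AS1, which starts 36 bases away, stood at 2.64 and 2.16 FPKM with DMSO and 2.42 and 2.66 FPKM with PH, with overlapping groups, and the ratio changed by -1.48 ± 0.18 (adjusted p = 0.00661, and 0.0541 without DMSO replicate 1). In the pair of the exocyst gene EXOC3, starting 2 bases apart, EXOC3 rose from 27.8 and 25.9 FPKM to 53.4 and 54.6 FPKM. EXOC3-AS1 was not called, at 3.06 and 3.61 FPKM with DMSO and 1.69 and 2.82 FPKM with PH. The ratio call of this pair was lost without either DMSO library or PH replicate 1.

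LURAP1L rose from 1.01 and 1.32 FPKM to 10.2 and 10.4 FPKM beside an uncalled antisense RNA at 1.27 to 2.67 FPKM over the 4 libraries, and VPS9D1 and TM4SF19 likewise rose beside antisense RNAs that were not called. The ratio calls of LURAP1L, VPS9D1 and TM4SF19 were lost in all 4 omissions. LAMTOR5, a subunit of the lysosomal Ragulator complex, was at 152 to 161 FPKM over the 4 libraries and was not called. The ratio call of its pair was lost without either DMSO library. LAMTOR5-AS1 fell from 4.74 and 5.22 FPKM to 1.41 and 2.52 FPKM, a call lost without either DMSO library or PH replicate 1 (adjusted p up to 0.109).

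On the other side the ratio was higher beside a lower sense gene in the pairs of SPAG5 (spindle), HMGN3 (nucleosome binding), GABPB1 (transcription), BOLA3 (iron-sulfur clusters), PSMA3 (proteasome), NDUFV2 (respiratory complex I) and ITFG2, with the antisense RNA not called in any of these 7. The ratio calls of SPAG5 and NDUFV2 were lost in all 4 omissions. Those of HMGN3, GABPB1, PSMA3 and ITFG2 were lost in 3 omissions each and that of BOLA3 without either DMSO library. The fall of GABPB1 was lost without DMSO replicate 2 or PH replicate 2 (adjusted p up to 0.0868). SPAG5-AS1, for example, was at 2.16 and 1.98 FPKM with DMSO and 2.38 and 2.52 FPKM with PH, and SPAG5 fell from 48.6 and 45.7 FPKM to 25.6 and 23.9 FPKM. CIRBP-AS1, in the gene of the cold-inducible RNA-binding protein, rose from 0.539 and 0.559 FPKM to 2.12 and 1.68 FPKM, and CIRBP was not called at 78.8 to 98.2 FPKM over the 4 libraries. THUMPD3-AS1 rose from 27.8 and 30.5 FPKM to 37.3 and 40.8 FPKM beside an uncalled THUMPD3, a tRNA methyltransferase gene, at 24.0 to 30.2 FPKM. The ratio call of THUMPD3 was lost in all 4 omissions and that of CIRBP in 3. On the log2(FPKM + 0.1) scale, which understates changes of weak RNAs less, 22 ratios were called, 13 higher and 9 lower. Among the ratio changes called in all 4 omissions were those in the pairs of STARD4, MAGEA4, MRPL20, SLCO4A1 and SRP14. That of IGF2BP2 was called too, but IGF2BP2-AS1 entered the test through the DMSO libraries alone, so this call is no support. The ratio calls of STARD4, MAGEA4, MRPL20 and SRP14 are no separate support either, because these pairs were chosen for called opposite changes.

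For the rest of the account the pairs are ordered by what the sense gene does. The counts called in these groups stand beside 18.1% higher and 20.5% lower, or 38.6% called, among all tested genes, and 51.7% called at means of 10 FPKM or more. Of 12 sense genes of cell division, DNA replication and repair, all at means of 10 FPKM or more, 10 (83.3%) fell and 0 rose, where all tested genes at that level gave 51.7% called in either direction. Their antisense RNAs were called lower in 5 and higher in 2 of 12 (58.3%, against 38.6%). The median of their mean levels was 6.09 FPKM, and of all tested genes at 3 to 10 FPKM 30.8% were called. The group was not tested as a set. TMPO encodes lamina-associated polypeptides of the nuclear envelope and fell from 114 and 111 FPKM to 43.6 and 42.7 FPKM (change -1.36, adjusted p = 0.000238). TMPO-AS1 was at 23.1 and 13.5 FPKM with DMSO and at 4.54 and 5.16 FPKM with PH (change -1.68 ± 0.25, adjusted p = 0.00573). The DMSO libraries of TMPO-AS1 lay apart from each other, but both were above both PH libraries, and 713 of its 3357 exon bases lie in TMPO exons. The TMPO window (chr12:98515323-98515622, plus strand) holds 2 CCAAT boxes near the start and the TMPO-AS1 window (chr12:98516177-98516476, minus strand) none.
TMPO: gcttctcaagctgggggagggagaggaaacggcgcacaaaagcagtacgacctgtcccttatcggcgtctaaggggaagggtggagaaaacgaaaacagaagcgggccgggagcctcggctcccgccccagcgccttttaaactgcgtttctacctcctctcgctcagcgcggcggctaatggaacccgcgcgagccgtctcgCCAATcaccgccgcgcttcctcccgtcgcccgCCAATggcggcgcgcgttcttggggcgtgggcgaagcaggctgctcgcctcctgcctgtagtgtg
TMPO-AS1: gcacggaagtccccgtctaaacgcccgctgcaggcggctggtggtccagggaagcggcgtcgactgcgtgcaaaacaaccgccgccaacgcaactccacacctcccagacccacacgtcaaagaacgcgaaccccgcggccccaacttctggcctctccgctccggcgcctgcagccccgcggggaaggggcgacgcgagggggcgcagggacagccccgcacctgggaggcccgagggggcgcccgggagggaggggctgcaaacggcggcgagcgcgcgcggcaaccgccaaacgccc

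PRC1, which bundles microtubules of the anaphase spindle, fell from 111 and 108 FPKM to 41.4 and 44.8 FPKM, and PRC1-AS1 fell from 27.4 and 22.3 FPKM to 13.7 and 12.8 FPKM (change -0.85 ± 0.12, adjusted p = 0.00483). RNASEH1-AS1, head to head with the ribonuclease H1 gene, fell from 13.1 and 11.4 FPKM to 5.78 and 6.07 FPKM (change -0.94 ± 0.12, adjusted p = 0.00356). SGO1-AS1, opposite the gene of shugoshin, which guards cohesion at centromeres, fell from 3.19 and 3.64 FPKM to 2.098 and 1.68 FPKM, and SGO1 fell from 15.1 and 14.1 FPKM to 7.67 and 6.74 FPKM. RNASEH1 fell as well.

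In 4 further pairs of this group the sense gene fell and the antisense RNA was not called. SMC2, a condensin subunit, fell from 31.6 and 34.2 FPKM to 13.6 and 12.9 FPKM, while SMC2-AS1 was scattered from 0.0237 to 2.51 FPKM over the 4 libraries. The others were SPAG5, the telomere gene POT1 and RCC2, a regulator of chromosome condensation. MCPH1-AS1, opposite the microcephalin gene, rose from 0.836 and 0.393 FPKM to 3.42 and 1.66 FPKM, and MCPH1 was not called. MCPH1-AS1 entered the test through the PH libraries alone, so its call is no support. The calls of SGO1-AS1 (adjusted p up to 0.175) were lost in all 4 omissions and those of MCPH1-AS1 (up to 0.184) in 3, without either DMSO library or PH replicate 1. RNASEH1 (up to 0.0748) and POT1 (up to 0.0681) were lost without either DMSO library or PH replicate 2, and RCC2 without DMSO replicate 1 (0.0583).

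Of the 10 pairs of sterol and lipid genes, 5 sense genes rose and 3 fell, and 3 antisense RNAs rose and 2 fell. That is 50.0% of the antisense RNAs, against 38.6% of all tested genes and 16.1% of those at 1 to 3 FPKM. Of the sense genes 80% were called, and 5 of 5 at means of 10 FPKM or more, against 51.7% of all tested genes at that level. The median of the mean levels of these antisense RNAs was 2.90 FPKM, and the group was not tested as a set. IDI2-AS1 rose from 1.23 and 1.11 FPKM to 4.19 and 3.89 FPKM (change 1.21 ± 0.17, adjusted p = 0.00474). IDI2, an isopentenyl diphosphate isomerase, was not called, but 643 of the 1276 exon bases of IDI2-AS1 lie in exons of its neighbour IDI1, which makes the same conversion in isoprenoid and cholesterol synthesis. IDI1 rose from 30.7 and 31.1 FPKM to 93.1 and 85.8 FPKM. CYP1B1-AS1, head to head with the gene of a cytochrome P450 that oxidises estrogens and aromatic hydrocarbons, rose from 2.91 and 2.01 FPKM to 10.9 and 7.93 FPKM (change 1.59 ± 0.22, adjusted p = 0.00435). CYP1B1 rose from 1.12 and 1.57 FPKM to 4.38 and 5.41 FPKM.

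SREBF2, which encodes SREBP2, rose from 38.6 and 40.8 FPKM to 72.2 and 71.0 FPKM, and VLDLR, a lipoprotein receptor, rose from 4.47 and 5.15 FPKM to 7.20 and 8.09 FPKM. Their antisense RNAs were not called, SREBF2-AS1 at 2.06 and 1.28 FPKM with DMSO and 2.84 and 2.58 FPKM with PH. OXCT1, the ketone body enzyme, fell from 20.0 and 20.9 FPKM to 8.94 and 8.75 FPKM beside an uncalled OXCT1-AS1. The rise of VLDLR was lost in all 4 omissions (adjusted p up to 0.120).

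Among 11 pairs of stress and cell death genes, 4 antisense RNAs rose and 0 fell, and 5 sense genes rose and 2 fell. The rises include BMF-AS1 and CIRBP-AS1, which entered the test through the PH libraries alone, so their calls are no support. The 36.4% called among these antisense RNAs was near the 38.6% of all tested genes. Of the sense genes 63.6% were called, and 57.1% at means of 10 FPKM or more, against 51.7% of all tested genes at that level. BMF-AS1, whose 461 exon bases all lie in exons of the pro-apoptotic BCL2 family gene BMF, rose from 0.551 and 0.602 FPKM to 2.56 and 1.78 FPKM. BMF rose from 2.22 and 0.861 FPKM to 9.23 and 9.67 FPKM (change 2.09, adjusted p = 0.00412). SLC7A11-AS1 rose from 7.13 and 7.94 FPKM to 10.7 and 11.6 FPKM, opposite the cystine transporter gene SLC7A11, which rose from 13.9 and 14.6 FPKM to 23.4 and 23.5 FPKM. TPT1-AS1 rose from 8.15 and 7.72 FPKM to 16.1 and 12.3 FPKM beside TPT1, a very abundant mRNA of the translationally controlled tumour protein, at 1119 and 1121 FPKM with DMSO and 1572 and 1544 FPKM with PH.

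The fourth rise in the stress group was that of CIRBP-AS1. DDIT4-AS1, whose 847 exon bases lie in exons of the mTORC1 inhibitor gene DDIT4, was one of the stronger antisense RNAs and was not called, at 72.1 and 66.2 FPKM with DMSO and 68.3 and 81.0 FPKM with PH. Of these 4 rises none was called in all 4 omissions. SLC7A11-AS1 (adjusted p up to 0.104) and CIRBP-AS1 (up to 0.0998) were lost in all 4, and BMF-AS1 (up to 0.0926) and TPT1-AS1 (up to 0.0811) without either DMSO library or PH replicate 1.

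**Figure D4:**
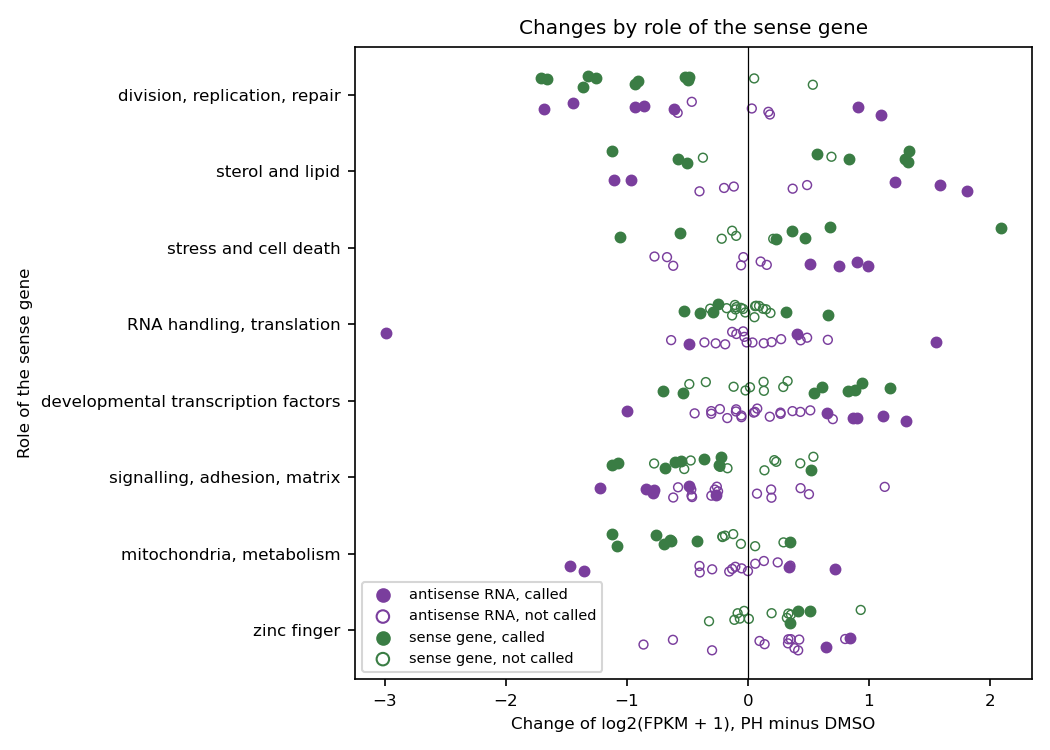
Change with PH, PH minus DMSO on the log2(FPKM + 1) scale, of antisense RNAs (purple) and their sense genes (green), grouped by the role of the sense gene. Filled points were called and open points were not. In the division group 10 of 12 sense genes and 5 of 12 antisense RNAs were lower.

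Genes of signalling, adhesion and matrix gave 21 antisense RNAs, 6 of them lower and 0 higher, and in all 6 pairs the sense gene fell too. The share called was 28.6%, below the 38.6% of all tested genes, of which 20.5% were lower. Of the sense genes of this group 47.4% were called, and 66.7% at means of 10 FPKM or more, against 51.7% at that level. PXN-AS1, tail to tail with the focal adhesion gene paxillin, fell from 104 and 109 FPKM to 61.6 and 60.5 FPKM (change -0.79 ± 0.05, adjusted p = 0.000688). PXN fell from 269 and 264 FPKM to 122 and 131 FPKM. WNT5A-AS1, which shares no exon base with the gene of this secreted ligand, fell from 7.54 and 9.67 FPKM to 4.15 and 4.51 FPKM (change -0.84 ± 0.16, adjusted p = 0.0119), and WNT5A fell from 43.4 and 49.5 FPKM to 30.1 and 27.1 FPKM.

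The falls of VIM-AS1 (change -0.27 ± 0.08, adjusted p = 0.0409) and of VIM were small, VIM going from 1737 and 1864 FPKM to 1479 and 1574 FPKM. VIM-AS1 shares exon bases with VIM, and the part of VIM reads in its fall was not tested. ANO1-AS1, all of whose 646 exon bases lie in exons of the chloride channel gene ANO1, and FLG-AS1, opposite the filaggrin gene, were the other called falls with SH3PXD2A-AS1. SH3PXD2A-AS1 entered the test through the DMSO libraries alone, so its call is no support. SVIL-AS1, opposite the supervillin gene, was at 9.73 and 11.97 FPKM with DMSO and at 49.2 and 12.3 FPKM with PH, so that 1 PH library stood far above the rest, and it was not called. ANO1-AS1 (adjusted p up to 0.204) and VIM-AS1 (up to 0.193) were lost without either DMSO library or PH replicate 2, FLG-AS1 (up to 0.128) without either DMSO library or PH replicate 1 and WNT5A-AS1 (up to 0.0679) without DMSO replicate 2 or either PH library. The fall of VIM was lost in all 4 omissions (up to 0.259), and so were those of FLG (up to 0.144) and SH3PXD2A (up to 0.158).

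Developmental transcription factors gave 25 antisense RNAs, 5 higher and 1 lower (24.0% called, against 38.6%). Of their 17 tested sense genes 6 rose and 2 fell. That is 47.1% called, and 42.9% at means of 10 FPKM or more, against 38.6% and 51.7% of all tested genes. LBX2-AS1, head to head with a homeobox gene, rose from 9.11 and 8.79 FPKM to 20.3 and 20.7 FPKM (change 1.11 ± 0.09, adjusted p = 0.000926), and LBX2 rose with it. FOXD1-AS1, all of whose 424 exon bases lie in the exon of the forkhead gene FOXD1, fell from 49.0 and 50.9 FPKM to 26.1 and 23.1 FPKM, and FOXD1 fell from 33.2 and 29.1 FPKM to 18.7 FPKM in both PH libraries. FOXD3, a neural crest forkhead factor, rose from 0.963 and 0.972 FPKM to 3.69 and 3.20 FPKM, while FOXD3-AS1 was not called and stood at 2.64 to 3.33 FPKM over the 4 libraries. FOXD3 entered the test through the PH libraries alone, so its call is no support, also where it is counted.

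Of the 7 antisense RNAs of the HOX clusters only HOXB-AS3 was called. It rose from 4.34 and 3.44 FPKM to 6.16 and 7.22 FPKM (change 0.66 ± 0.16, adjusted p = 0.0287), and this call was lost in all 4 omissions (adjusted p up to 0.132). HOXB-AS1 was at 4.87 to 5.80 FPKM, HOXD-AS2 at 2.402 to 4.68 FPKM, and HOXA-AS2, HOXA-AS3, HOXC-AS1 and HOXC-AS2 at 1.15 to 2.78 FPKM over the 4 libraries. NR2F1-AS1, head to head with an orphan nuclear receptor gene, rose from 0.876 and 1.05 FPKM to 2.16 and 3.24 FPKM, a call lost without either DMSO library or PH replicate 2 (up to 0.121). LBX2 was lost without DMSO replicate 2 or either PH library (up to 0.126).

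Sense genes of mitochondria and metabolism fell in 7 of 15 and rose in 1, and their antisense RNAs fell in 2 and rose in 2 of 16. The share called was 53.3% of the sense genes and 25.0% of the antisense RNAs, against 38.6% of all tested genes. NDUFB2 and NDUFV2 of complex I and SLC25A5, the ADP/ATP carrier, fell beside antisense RNAs at 0.530 to 2.49 FPKM that were not called. SLC25A25-AS1, tail to tail with a mitochondrial carrier gene, rose from 1.29 and 1.23 FPKM to 2.60 and 2.85 FPKM, and this call was lost in all 4 omissions (adjusted p up to 0.109). The other called RNAs, GLYCTK-AS1, SUCLG2-AS1 and MRPL20-AS1, are described above.

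Of 21 tested antisense RNAs opposite genes of RNA handling and translation 2 rose and 2 fell (19.0% called, against 38.6%). The falls include that of IGF2BP2-AS1, which entered the test through the DMSO libraries alone, so its call is no support. PRKRA-AS1, tail to tail with the gene of an activator of the double-stranded RNA kinase PKR, fell from 15.9 and 15.6 FPKM to 9.98 and 12.1 FPKM, and PRKRA was not called. That fall was lost without either DMSO library or PH replicate 1 (adjusted p up to 0.120). The others were IGF2BP2-AS1, SRP14-AS1 and THUMPD3-AS1, whose call was lost without DMSO replicate 1 or PH replicate 2 (up to 0.0805). Opposite zinc finger genes 2 of 14 antisense RNAs (14.3%) rose, ZNF433-AS1 from 12.7 and 15.7 FPKM to 22.7 FPKM in both PH libraries and ZNF503-AS2 from 1.03 and 1.43 FPKM to 2.80 and 3.17 FPKM. ZNF433-AS1 was lost without either PH library (up to 0.0625) and ZNF503-AS2 in all 4 omissions (up to 0.102).

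Several well-studied antisense RNAs were among the members. FGD5-AS1 fell from 64.4 and 64.9 FPKM to 40.3 and 40.2 FPKM (change -0.67 ± 0.06, adjusted p = 0.00105), a call that held in all 4 omissions, and FGD5 was listed at 0 in all 4 libraries. MCM3AP-AS1, NNT-AS1, SBF2-AS1, ZEB1-AS1, SLC16A1-AS1, THAP9-AS1, MIF-AS1, PSMB8-AS1, GAS6-AS1 and FOXD3-AS1 were not called. NNT-AS1, head to head with the gene of the mitochondrial transhydrogenase, was at 9.40 to 11.7 FPKM over the 4 libraries with overlapping groups.

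Among the remaining called pairs, TRHDE-AS1, ADIRF-AS1 and SERTAD4-AS1 were called in all 4 omissions. TRHDE-AS1, inside the gene of an enzyme that degrades thyrotropin-releasing hormone, fell from 33.7 and 36.2 FPKM to 17.7 and 17.4 FPKM (change -0.95 ± 0.07, adjusted p = 0.000929), and TRHDE fell from 29.5 and 33.8 FPKM to 16.5 and 17.5 FPKM. ADIRF-AS1, head to head with a gene of adipogenesis, rose from 8.996 and 9.38 FPKM to 22.9 and 20.3 FPKM (change 1.15 ± 0.10, adjusted p = 0.00118). SERTAD4-AS1 rose from 10.9 and 13.6 FPKM to 24.9 and 21.8 FPKM beside SERTAD4, which rose from 18.9 and 20.9 FPKM to 36.7 and 39.5 FPKM. ADIRF was called higher, but not in any of the 4 omissions (adjusted p up to 0.115).

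Genes whose products remove or process antisense RNAs were listed as well, since nuclear antisense RNAs are substrates of the RNA exosome. Of 47 genes of the exosome, its adaptors, other decay, transcription termination and double-stranded RNA handling, all tested, 5 rose, 17 fell and 25 were not called, with a median change of -0.20. The 46.8% called stood above the 38.6% of all tested genes, but 43 of the 47 had means of 10 FPKM or more, and of these 21 (48.8%) were called, against 51.7% of all tested genes at that level. The exosome genes EXOSC2, EXOSC3, EXOSC4, EXOSC5, EXOSC8 and EXOSC9 fell, EXOSC2 from 45.6 and 43.8 FPKM to 22.4 and 21.5 FPKM. EXOSC1, EXOSC6 and the exosome nuclease gene DIS3 rose, DIS3 from 26.9 and 29.1 FPKM to 34.6 and 32.8 FPKM. ZFC3H1, an adaptor of the exosome, rose from 34.0 and 37.7 FPKM to 62.3 and 55.8 FPKM, and the termination factor PCF11 rose too. Among double-stranded RNA genes, the helicase DHX9 fell from 121 and 120 FPKM to 64.8 and 60.8 FPKM, and ILF2, DROSHA and ADARB1 were among the others that fell. When 1 library was left out 12 to 14 of the 47 were called, with 1 higher in each case. Of the genes named, EXOSC1, EXOSC6, DIS3, PCF11 and ADARB1 were lost in all 4 omissions (adjusted p up to 0.175), DROSHA and EXOSC4 in 3 (up to 0.117) and EXOSC3 without either DMSO library (0.0613 at most). Whether these changes have a part in those of the antisense RNAs was not tested.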

How the data were processed

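RNA from A375 cells was measured by RNA sequencing in 2 DMSO and 2 paroxetine hydrochloride (PH) libraries. The deposited table gives FPKM values made by the authors. Per the submitters' processing notes, CASAVA 1.4, HISAT2 2.1.0, Cufflinks 2.2.1 and the build hg38 were used, and the order and options, the strand setting and the handling of multi-mapped reads are stated by no source used here. Per the labels' protocols the kit was directional, and both ribosomal RNA depletion and poly(A) fractions, and different instruments, are named, so what applied to each library is not known. Read numbers are not in the table. From the most frequent ratio between values of low genes, depth relative to DMSO replicate 1 was 0.93, 0.874 and 0.963 in DMSO replicate 2 and PH replicates 1 and 2. FPKM summed to 606197 to 655607 per library. 12 other per-sample columns were not used.

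The 15511 genes with 2 or more libraries at 1 FPKM or above were tested on log2(FPKM + 1), a pseudocount of 1. The test was that of limma 3.58.1, two-sided, with a mean-variance trend, Benjamini-Hochberg adjustment over all tested genes, 2 residual and 3.32 prior degrees of freedom, and a threshold of 0.05. Ratios were fitted the same way over 3516 pairs (3.69 prior degrees of freedom). Sense genes were matched by the symbol before -AS, 1 of them by an older symbol. Positions are from GENCODE release 29. Symbols turned into dates (27) were restored by identifier. FPKM values are not counts, and no count model was run. Named were the 12 largest called rises and falls without overlapping groups, the 10 highest means, the members nearest the limit of 1 FPKM, loci with several antisense RNAs, a list of well-studied members, called pairs of opposite direction and the 8 largest ratio changes each way. 1 pair that these rules name and 1 gene of the decay list are not reported here by name, and counts include them. Other members named within the role groups and the remaining pairs were chosen after their values were seen. The members, gene lists and role groups were chosen with earlier results of these data known. The fit was tested on simulated data. Alternatives were trimmed-mean scaling, quantile normalization, log2(FPKM + 0.1), no filter, a minimum of 5 FPKM, no trend, the replicate number as a block and each library left out. The scripts ran under R 4.3.3 and Python 3.11.15 (with pandas 2.3.3), and figures were drawn with matplotlib 3.10.9.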

Additional observations from a re-analysis of the deposited data

How the results depend on the processing

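Directions held in every alternative for all 235 called values of antisense RNAs, sense genes and ratios. With no filter, a minimum of 5 FPKM, no trend or the replicate block the change itself stays the same, so its direction could not turn. Nor could it for called antisense RNAs when a library was left out, as their groups do not overlap. Of the 235 values, 143 stayed under an adjusted p of 0.05 in every alternative that kept all 4 libraries and tested them. The count of antisense RNAs called (73) was 43 with no filter (25 higher, 18 lower) and 49 at a minimum of 5 FPKM (21 lower), where fewer were tested. With no filter the sense genes called higher were 41 (64 as reported). The ratios called higher (19) were 12 with no filter and 13 with log2(FPKM + 0.1). Of the decay and double-stranded RNA genes, 1 was called higher with no filter and 1 without the trend, against 5. The cause was not tested. Leaving out each library in turn gave 37 to 47 antisense RNAs called (21 to 24 higher, 16 to 23 lower), 69 to 84 sense genes (34 to 39 higher, 35 to 45 lower), 9 to 17 ratios (6 to 10 higher, 2 to 7 lower) and 12 to 14 decay genes (1 higher, 11 to 13 lower), where the lone library of a group is assumed to vary like the other group. With fewer libraries the test has 1 residual degree of freedom less.

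The labels do not say whether same-numbered libraries were made together. Their deviations from the group means correlated at r = -0.0425 across genes. With the replicate number as a replicate block 62 antisense RNAs (35 higher, 27 lower), 119 sense genes, 20 ratios (12 of them higher) and 19 decay genes (3 higher) were called. Read numbers are not in the table, so how depth limits the calls of weak RNAs was not tested.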
